A study of Mus musculus with 7 samples.

Results

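Zic1, Zic2, Zic4, Zic5, Pax3 and Pax6 are 6 transcription factor genes that pattern the neural tube, taken here as a listed group out of the 18194 genes with a name of their own on the array. They were listed by name with earlier results of these data known, so that their counts are descriptions of this choice of genes, and every probe set annotated to a single member was used, which gave 16 probe sets. Zic1 has 2 of these, Zic2 has 1, Zic4 has 2, Zic5 has 3, Pax3 has 3 and Pax6 has 5. Where a gene has several probe sets, the one brightest on average (by mean log2 signal) gives its value, and the remaining ones are set beside it. RNA was measured on 7 expression arrays, 1 for each cell type or tissue. SK7_ESC stands for undifferentiated cells of SK7, a male ES cell line that carries a green fluorescent reporter under the Pdx1 promoter, and its derivatives in culture were labelled ectoderm (Ect), endoderm (End) and paraxial mesoderm (Pme), so that all cultured samples come from a single line. The tissues Brain, Liver and Sk_muscle, the last of these skeletal muscle, were taken from adult male mice of the ICR strain, which the labels also give for the cultured cells. The region of the brain, the number of animals and any sorting of the cultured cells are not stated in the labels or methods.

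Zic genes encode zinc finger proteins related to the Gli factors of the hedgehog pathway, and they act in gastrulation, in closure and dorsal patterning of the neural tube, in the neural crest and in the cerebellum. Pax genes encode factors with a paired DNA-binding domain. Pax3 marks the dorsal neural tube, the neural crest and the muscle progenitors of the somite, whereas Pax6 marks neural progenitors at intermediate levels of the neural tube, the developing eye and cortex, and the endocrine pancreas.

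The deposited values are linear signals that the authors scaled globally in each array. Signals up to 50 count as background here. To be called higher in 1 of 2 arrays, a gene needed a signal over 50 there and a ratio of 2 or more, and the dimmer value entered the ratio as 50 where it was below that, which makes the ratio a lower bound, written "at least". With 1 array per group no spread between replicates could be estimated and no test was possible, so that differences are given by size only. As a measure of technical disagreement, 2975 genes had several probe sets above background in both Ect and SK7_ESC, and within such a gene the largest and the smallest Ect to SK7_ESC ratio differed by 1.23-fold at the median and by 1.88-fold at the 90th percentile. The numbers of genes above background lay between 7810 in Liver and 9075 in Brain. In bulk RNA, fewer cells of a type and less RNA per cell cannot be told apart.

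The arrays were checked against marker genes of their labels. In SK7_ESC 8 of 8 pluripotency genes were above background, in Ect 12 of 13 neural progenitor genes, in End 9 of 9 genes of definitive endoderm, in Brain 8 of 8 neuron genes, in Liver 7 of 7 liver genes and in Sk_muscle 8 of 8 muscle genes. Pme differed, since 2 of 8 paraxial mesoderm genes were above background there, Pdgfra at 1062.2 and Foxc1 at 82.7. The defining factors Tbx6, Msgn1, Mesp2 and Meox1 were under background in Pme, the first 3 of them at 17.7, 2.7 and 11.5, so that Pme is called here by its label only. In End 3 of 8 pluripotency genes were still above background, Nanog at 299.5, Tdgf1 at 773.7 and Pou5f1 at 57.3, against 1533.4, 2788.2 and 2037.9 in SK7_ESC, and the summed signal of the list was 1232 in End, 140 in Ect and 226 in Pme. Fibroblast and feeder genes were high in Pme, with 9 of 11 above background and a summed signal of 9885, against 1177 in SK7_ESC, 2521 in Ect and 997 in End.

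Most members had their highest signal in the ectoderm array. Above background were 5 of 6 members in Ect, 2 in SK7_ESC, 2 in End, 2 in Pme, 1 in Brain and 0 in Liver and Sk_muscle. Over all 18194 genes these shares were 47.1% in Ect, 44.4% in SK7_ESC, 45.5% in End, 47.4% in Pme, 49.9% in Brain, 42.9% in Liver and 43.3% in Sk_muscle. Higher in Ect than in SK7_ESC were 3 of 6 members, Zic1, Zic2 and Pax3, and 0 were lower, beside 6.62% of all genes higher and 4.89% lower. After scaling the arrays to the same median, 2 of 6 members, Zic1 and Pax3, were higher in this comparison, beside 5.32% of all genes higher and 7.45% lower. Pax6 joins these 3 by 2 of its probe sets, though not by the 1 with the highest mean signal. The median log2 ratio of Ect to SK7_ESC was 0.81 for the members and 0.00 for all genes, both with signals under 50 raised to 50.

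**Figure D1:**
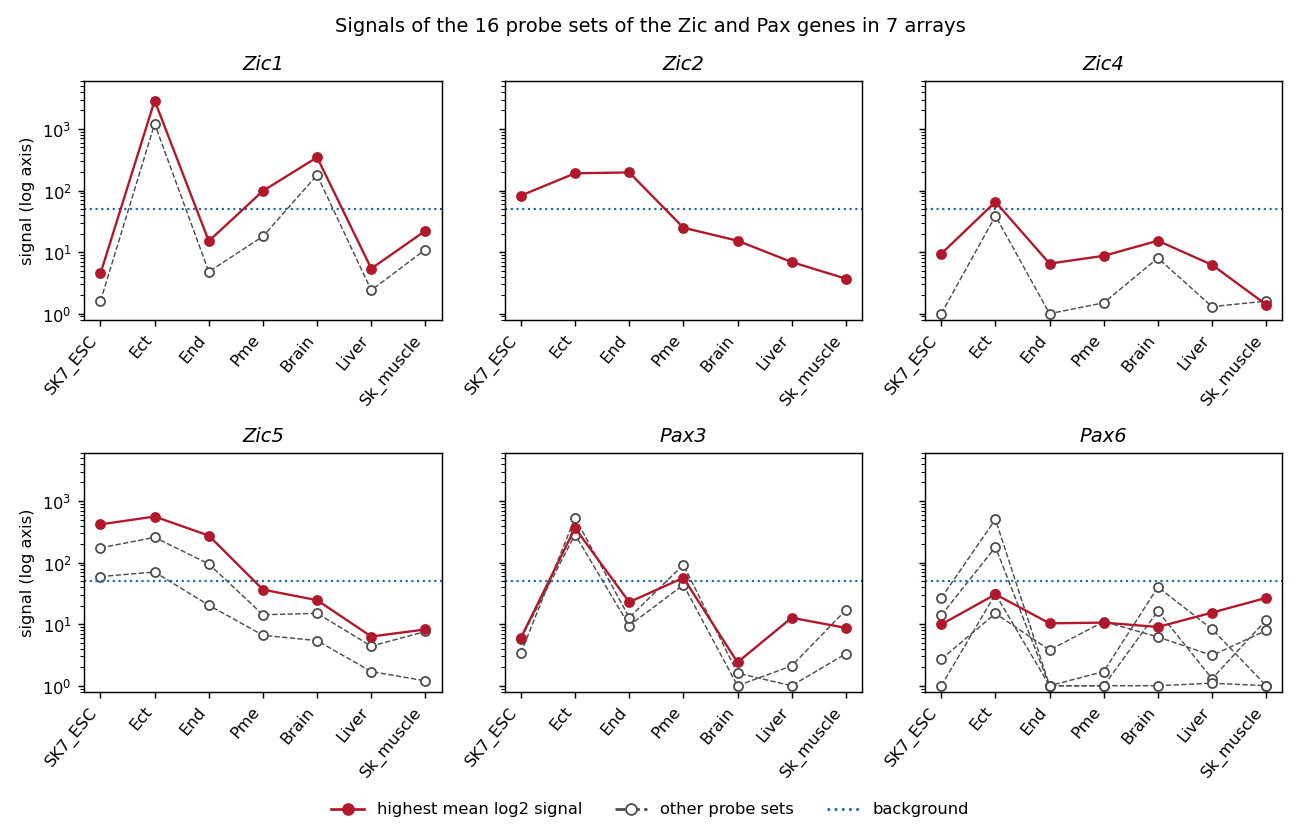
Signals (log axis, values under 1 drawn as 1) of each probe set of Zic1, Zic2, Zic4, Zic5, Pax3 and Pax6 in the 7 arrays, 1 array each, with a dotted line at the background of 50. Red points mark the probe set brightest on average (highest mean log2 signal) and open points the other probe sets. Zic1 stands at 2888.5 in Ect, and the 2 brightest Pax6 probe sets in Ect, at 503.5 and 178.8, are open points.

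Zic1, a factor of the dorsal neural tube and of cerebellar granule cell precursors, went from background in ES cells to a high signal in ectoderm. The Zic1 signal was 4.5 in SK7_ESC, 2888.5 in Ect, 15.1 in End, 98.6 in Pme, 346.2 in Brain, 5.4 in Liver and 22.2 in Sk_muscle. Ect was the brightest array and Brain came next. The ratio of Ect to SK7_ESC and to End was at least 57.8, that of Ect to Pme was 29.3 and that of Ect to Brain was 8.34. Brain was at least 6.92-fold higher than Liver and Sk_muscle, and 3.51-fold higher than Pme. Zic1 was thus the 1 member of 6 called higher in Brain than in both other tissues, as were 10.8% of all genes. The second probe set gave the same order of the 3 brightest arrays but put Pme under background, with 1213.3 in Ect, 178.0 in Brain and 18.0 in Pme.

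The Zic1 signal in Pme was close to the limits used. It was 1.97 times the background of 50, so that Zic1 was not called higher in Pme than in SK7_ESC, and it was called so after median scaling (at least 2.02-fold) and with a background of 20 (at least 4.93-fold). The second probe set, at 18.0, put it under background. Markers of other cell types in Pme are given above, and their part in this signal was not tested.

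Zic4, which lies next to Zic1 on chromosome 9 and acts with it in cerebellar development, was above background in Ect alone. Its signal was 65.4 in Ect, 15.3 in Brain, 9.4 in SK7_ESC, 8.7 in Pme, 6.5 in End, 6.2 in Liver and 1.4 in Sk_muscle. No array was called higher than another, since 65.4 is 1.31 times the background. The second probe set peaked in the same array, at 38.7 in Ect, under background, and at 8.0 in Brain. With a background of 20, Ect was at least 3.27-fold higher than SK7_ESC. The RefSeq starts of Zic1 and Zic4 lie 3204 bases apart and point away from each other. The 250 bases before each start are shown because these neighbouring genes both had their highest signal in Ect, yet their promoters are unlike in CG content. They are from RefSeq on GRCm38.p6, Zic1 at chr9:91365769-91366018 on the minus strand and Zic4 at chr9:91368722-91368971 on the plus strand, and capitals mark CG dinucleotides, the bases at which DNA methylation occurs.
Zic1: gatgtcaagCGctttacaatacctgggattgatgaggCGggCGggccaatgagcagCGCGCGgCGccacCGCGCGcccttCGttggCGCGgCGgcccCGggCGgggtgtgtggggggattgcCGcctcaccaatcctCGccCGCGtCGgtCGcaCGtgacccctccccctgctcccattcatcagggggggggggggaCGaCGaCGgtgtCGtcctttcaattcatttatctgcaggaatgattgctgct
Zic4: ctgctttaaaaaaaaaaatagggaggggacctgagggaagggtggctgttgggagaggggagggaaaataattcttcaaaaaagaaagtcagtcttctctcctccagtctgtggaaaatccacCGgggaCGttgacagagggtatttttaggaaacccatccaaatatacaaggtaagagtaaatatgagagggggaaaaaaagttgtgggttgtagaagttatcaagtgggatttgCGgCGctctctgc
The Zic1 window holds 27 CG dinucleotides and is 66.0% G or C, and the Zic4 window holds 4 and is 44.4% G or C. The median over the 32851 RefSeq promoters of this length was 6 CG dinucleotides, 91.4% of them held fewer than Zic1 and 37.8% held fewer than Zic4. The motif CCAAT, read on both strands, occurred 2 times in the Zic1 window and 0 times in that of Zic4, and 33.8% of all promoters held it. The Gli motif GACCACCCA, read on both strands, was in neither window and in 0.225% of all promoters, and a match or its absence describes these letters only.

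Zic2 and Zic5, which lie next to each other on chromosome 14, were already above background in ES cells and so differed from Zic1 and Pax3. Zic2 acts from gastrulation to neural tube closure, and Zic5 in the neural tube and crest. The Zic2 signal, with its 1 probe set, was 82.7 in SK7_ESC, 190.5 in Ect, 196.7 in End, 24.9 in Pme, 15.3 in Brain, 6.9 in Liver and 3.7 in Sk_muscle. Ect and End were alike in Zic2, at a ratio of 1.03 in favour of End, and both were above SK7_ESC, by 2.30-fold in Ect and 2.38-fold in End. The 2 arrays labelled Ect and End were each well clear of Pme and the tissues, where Zic2 was under background. Zic2 was the 1 member higher in End than in SK7_ESC, and 0 were lower there, beside 4.89% and 3.81% of all genes. These calls are close to the limit, and after median scaling, which lowered ratios of Ect to SK7_ESC by 0.22 on the log2 scale, the Zic2 ratio in Ect was 1.97. Against Pme, Zic2 was at least 3.81-fold higher in Ect and at least 3.93-fold higher in End.

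Zic5 was bright in ES cells, ectoderm and endoderm and under background in the other arrays. The Zic5 signal was 417.4 in SK7_ESC, 559.0 in Ect, 274.4 in End, 36.4 in Pme, 24.5 in Brain, 6.3 in Liver and 8.2 in Sk_muscle. SK7_ESC, Ect and End formed the bright end of this order, and the steps from Ect to SK7_ESC (1.34-fold) and from SK7_ESC to End (1.52-fold) were under 2-fold. The next step, from End to Pme, was at least 5.49-fold. Zic5 was at least 8.35-fold lower in Pme than in SK7_ESC and was the 1 member called lower there, while 0 members were called higher. The pluripotency genes above background in End are given above, and their part in the Zic2 and Zic5 signals there was not tested. Of all genes 4.55% were lower and 6.74% higher in Pme, and 7.10% and 5.40% after median scaling. The other probe sets had the same order over these arrays, with 173.5, 256.7, 95.1 and 14.2 in SK7_ESC, Ect, End and Pme for the second, and 59.3, 70.3, 20.3 and 6.6 for the third. By the first 2 probe sets Zic5 was called lower in Pme, and by the third it could not be, since its signal in SK7_ESC is 1.19 times the background.

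The promoter of Zic5 is shown for comparison with the pair on chromosome 9, since Zic5 was above background in ES cells. It covers the 250 bases before the RefSeq start, at chr14:122465659-122465908 on the minus strand of GRCm38.p6, with CG dinucleotides in capitals.
Zic5: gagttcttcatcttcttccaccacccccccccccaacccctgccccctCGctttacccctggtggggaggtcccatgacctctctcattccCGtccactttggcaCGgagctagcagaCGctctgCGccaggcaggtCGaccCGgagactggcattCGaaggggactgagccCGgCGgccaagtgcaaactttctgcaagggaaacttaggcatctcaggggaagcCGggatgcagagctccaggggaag
It holds 11 CG dinucleotides, between the 4 of Zic4 and the 27 of Zic1, and 64.4% of all promoters held fewer. Sequences were at hand for 4 of the 6 members.

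Pax3 followed the pattern of Zic1 in the cultured cells. The Pax3 signal was 6.0 in SK7_ESC, 363.4 in Ect, 22.8 in End, 56.6 in Pme, 2.4 in Brain, 12.7 in Liver and 8.7 in Sk_muscle. Ect was far above the other arrays, and Pme, just above background, was the only other array over 50. The ratio of Ect to SK7_ESC, End and Brain was at least 7.27 and that of Ect to Pme was 6.42. The other probe sets gave 536.6 and 285.2 in Ect and 92.1 and 43.5 in Pme, and at most 16.9 in the remaining arrays, so that all 3 called Ect higher than SK7_ESC, End, Pme and Brain. In Pme the ratio to SK7_ESC was 1.13 by the probe set used and 1.84 by the brightest, neither of which reached 2. With a background of 20 it was 2.83 and was called higher. Unlike Zic1, Pax3 was under background in Brain with every probe set.

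Pax6 depends on which of its probe sets is read. The probe set brightest on average was under background in every array, with 9.9 in SK7_ESC, 30.5 in Ect, 10.3 in End, 10.6 in Pme, 9.0 in Brain, 15.4 in Liver and 26.7 in Sk_muscle. The brightest probe set had 26.6, 503.5, 1.0, 1.7, 40.0, 8.3 and 1.0 in the same order of arrays, and a further probe set had 13.9, 178.8, 0.6, 1.0, 16.3, 1.3 and 11.7. Both placed Pax6 above background in Ect and in no other array, at least 10.1-fold and at least 3.58-fold above SK7_ESC, and both had their next highest signals in SK7_ESC and Brain, under background. The last 2 probe sets were at most 30.8 and 14.9, each in Ect. All 5 probe sets had their highest signal in Ect, and 2 of them were above background there. The rule that names the first probe set averages logarithms, so that an even signal under background ranks above a signal that is high in 1 array and near 0 elsewhere. Taking the probe set with the highest single signal instead, a choice made after these values were seen, 4 of 6 members were higher in Ect than in SK7_ESC, against 6.77% of all genes.

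**Figure D2:**
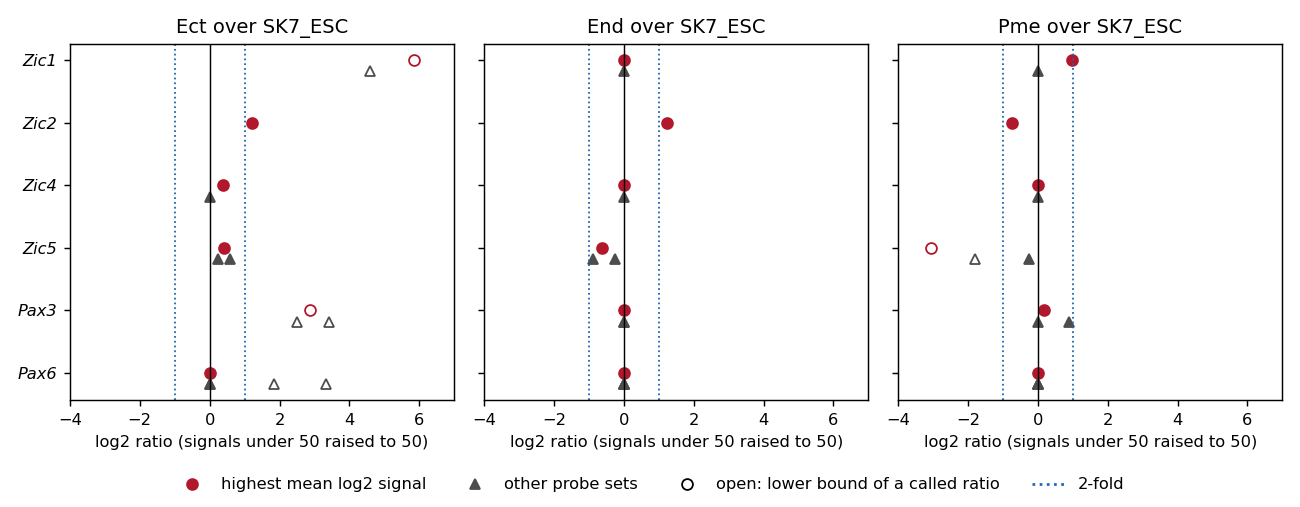
Log2 ratio of Ect, End and Pme to SK7_ESC for each probe set of the 6 genes, after signals under 50 were raised to 50, with 1 array per group. Circles are the probe sets brightest on average (highest mean log2 signal), triangles are the others, open symbols are lower bounds of called ratios and dotted lines mark 2-fold. Zic1 lies at 5.85 in Ect, Zic2 at 1.25 in End, and Zic5 at -3.06 in Pme.

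Set against both other germ layers, Zic1, Zic5 and Pax3 were higher in Ect, which is 3 of 6 members beside 1.82% of all genes. For Zic5 this rests on a ratio of 2.04 to End, which was 2.70 with its second probe set and 1.81 after median scaling, which ended the call. Zic2 was not called, since End was as bright as Ect. By its brightest probe set Pax6 was higher in Ect too, by at least 10.1-fold against either layer. Against Brain, Zic1, Zic2, Zic5 and Pax3 were higher in Ect, which is 4 of 6 members, and 0 were lower, beside 13.8% and 12.3% of all genes. After median scaling 19.4% of all genes were higher and 8.71% lower, and the same 4 members were called. The lower bound of the ratio of Ect to Brain was 11.2 for Zic5 and 3.81 for Zic2, both under background in Brain.

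By Pearson's r, Zic1 and Pax3 shared a pattern led by Ect, and Zic2 and Zic5 one shared with ES cells and End. Zic4 is set beside Zic1 and Pax3 here, and Pax6, under background throughout by the probe set used, is left out. Pearson's r of log2 signals raised to 50, over 7 arrays, was 0.87 for Zic2 with Zic5, and 0.89 for Zic1 with Zic4 and for Zic1 with Pax3. Between the group of Zic1, Zic4 and Pax3 and the pair of Zic2 and Zic5 it ranged from 0.37 for Zic1 with Zic5 to 0.61 for Zic2 with Zic4. Spearman's rho was 0.87 for Zic2 with Zic5, 0.68 for Zic1 with Zic4 and 0.74 for Zic1 with Pax3. Between the group and the pair, rho ranged from 0.00 for Zic1 with Zic2 to 0.68 for Zic4 with Zic5. By ranks Zic4 was thus as close to Zic5 as to Zic1, and the split was less clear. These values describe 7 arrays in which many signals were set to the same background, and the arrays of cultured cells share a line.

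Among 6097 named genes that differed at least 4-fold between arrays, the pattern most like that of Zic1 was that of Fam181b, with r = 0.992 over 7 arrays and signals of 210.5 in Ect, 82.5 in Brain and 62.9 in Pme. Next were Fabp7, Epha3, Mir124-2hg and Dtx4, with r between 0.980 and 0.983. Fabp7, a fatty acid binding protein of radial glia, had 2986.0 in Ect and 318.2 in Brain. For Zic2 the nearest patterns were those of Ntn1, a netrin that guides axons, at r = 0.958, and of Dll3, Tedc1, Sfrp1 and Vangl2. For Zic5 they were those of Tedc1, Ctnnal1, Nfatc2ip, Ccne1 and E2f8, with r between 0.890 and 0.909. Pax3 was nearest to Fgfbp3, at r = 0.9998, with 290.5 in Ect and 54.0 in Pme. Insm1, Nhlh2, Olig3 and Peg12 came next, all at 0.9981. These were above background in Ect alone, and any such gene has the same r with Pax3, so that naming these is arbitrary. For Pax3, 14 genes had r over 0.99. Zic4 was above background in a single array, so that 12 genes seen only in Ect had r rounding to 1, among them Msx3, Neurod4, Neurog2, Nhlh2 and Peg12. No such list was made for Pax6, whose signal by the probe set used was under background throughout.

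Other genes of the families were largely under background. Of 6 further Pax genes measured, Pax1, Pax4, Pax5, Pax7, Pax8 and Pax9, 1 was above background in any array, and 0 were called higher or lower in Ect than in SK7_ESC. That gene was Pax7, a factor of the dorsal neural tube and of muscle stem cells, at 62.4 in Ect and at most 9.6 elsewhere. Its second probe set was at 152.7 in Ect, at least 3.05-fold above SK7_ESC, and at most 13.7 elsewhere. The highest signals of the others were 9.8 for Pax1 in End, 7.2 for Pax4 in Liver, 18.8 for Pax5 in Sk_muscle, 19.3 for Pax8 in Sk_muscle and 16.3 for Pax9 in Pme. Pax2 was not analysed here.

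The Gli and hedgehog genes, to which Zic proteins are related in sequence and function, were in part higher in ectoderm than in ES cells. Of 13 measured genes, 7 were higher in Ect than in SK7_ESC and 0 lower, with a median log2 ratio of 1.27 against 0.00 for all genes. The 6 not called include Ptch1, with 972.6 in Ect and 768.1 in SK7_ESC, and Gli2, with 331.9 and 388.5. Gli1 and Hhip, also not called, were under background in Ect, at 34.9 and 11.4. Gas1, a co-receptor of Shh, had 2753.3 in Ect and 79.2 in SK7_ESC (34.8-fold), Gli3, a Gli factor that acts mainly as a repressor, had 744.6 and 65.9 (11.3-fold), and the co-receptor gene Boc had 307.2 and 24.3 (at least 6.14-fold). These genes also moved in Pme, where 5 of 13 were higher and 0 lower, with Gas1 at 1272.6 and Gli3 at 418.8. In End 3 were higher and 1 was lower, Gli2, with 44.8 against 388.5 in SK7_ESC. Of the 6 members, 0 were higher in Pme, beside 6.74% of all genes. With a background of 20 there were 2, Zic1 and Pax3, beside 10.2% of all genes.

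Genes of the dorsal neural tube, where Zic1, Pax3 and Pax7 act, were above background in 7 of 13 cases in Ect, 3 in Pme, 2 in End and 0 in SK7_ESC. The shares of all genes were 47.1%, 47.4%, 45.5% and 44.4%, so that the count in Ect was near that of all genes. Called higher than in SK7_ESC were 3 in Ect, 3 in Pme and 1 in End, and 0 were lower in any. Msx3, a homeobox gene of the dorsal neural tube, had 404.9 in Ect and at most 2.8 in End and Pme (at least 8.10-fold above SK7_ESC). Olig3, a factor of dorsal progenitors, had 309.3 in Ect and at most 6.6 in the other cultured cells. Msx2, another homeobox gene, had its highest signal in Pme, at 444.7, beside 179.3 in Ect and 188.2 in End. The median log2 ratio of the list in Ect was 0.32.

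Of 13 genes of the ventral and intermediate neural tube, 2 were higher in Ect and 0 lower, Irx3 (647.8, at least 13.0-fold) and Irx5 (476.9, at least 9.54-fold), homeobox genes that were both above background in End and Pme as well. The median log2 ratio of this list was 0.00. Above background were 5 of its 13 genes in Ect, 3 in End, 3 in Pme and 0 in SK7_ESC. Besides Irx3 and Irx5, those in Ect were Olig2 at 96.7, Gsx2 at 69.8 and Foxa2 at 64.0. The dorsal and ventral lists thus differed little in Ect. Of 14 forebrain and eye field genes, 0 were above background in Ect, and 0 were called higher or lower there. Otx2, a factor of the forebrain and midbrain, had 11.7 in Ect, 53.5 in SK7_ESC and 2406.3 in End. Of 11 midbrain and hindbrain genes, 3 were higher in Ect and 0 lower, namely Hoxb2 (591.4, at least 11.8-fold), Hoxb3 (575.7, at least 11.5-fold) and Hoxa2 (156.8, at least 3.14-fold), Hox genes of the hindbrain. Hoxb2 and Hoxb3 were also higher in Pme than in SK7_ESC, at 127.3 (at least 2.55-fold) and 179.0 (at least 3.58-fold).

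**Figure D3:**
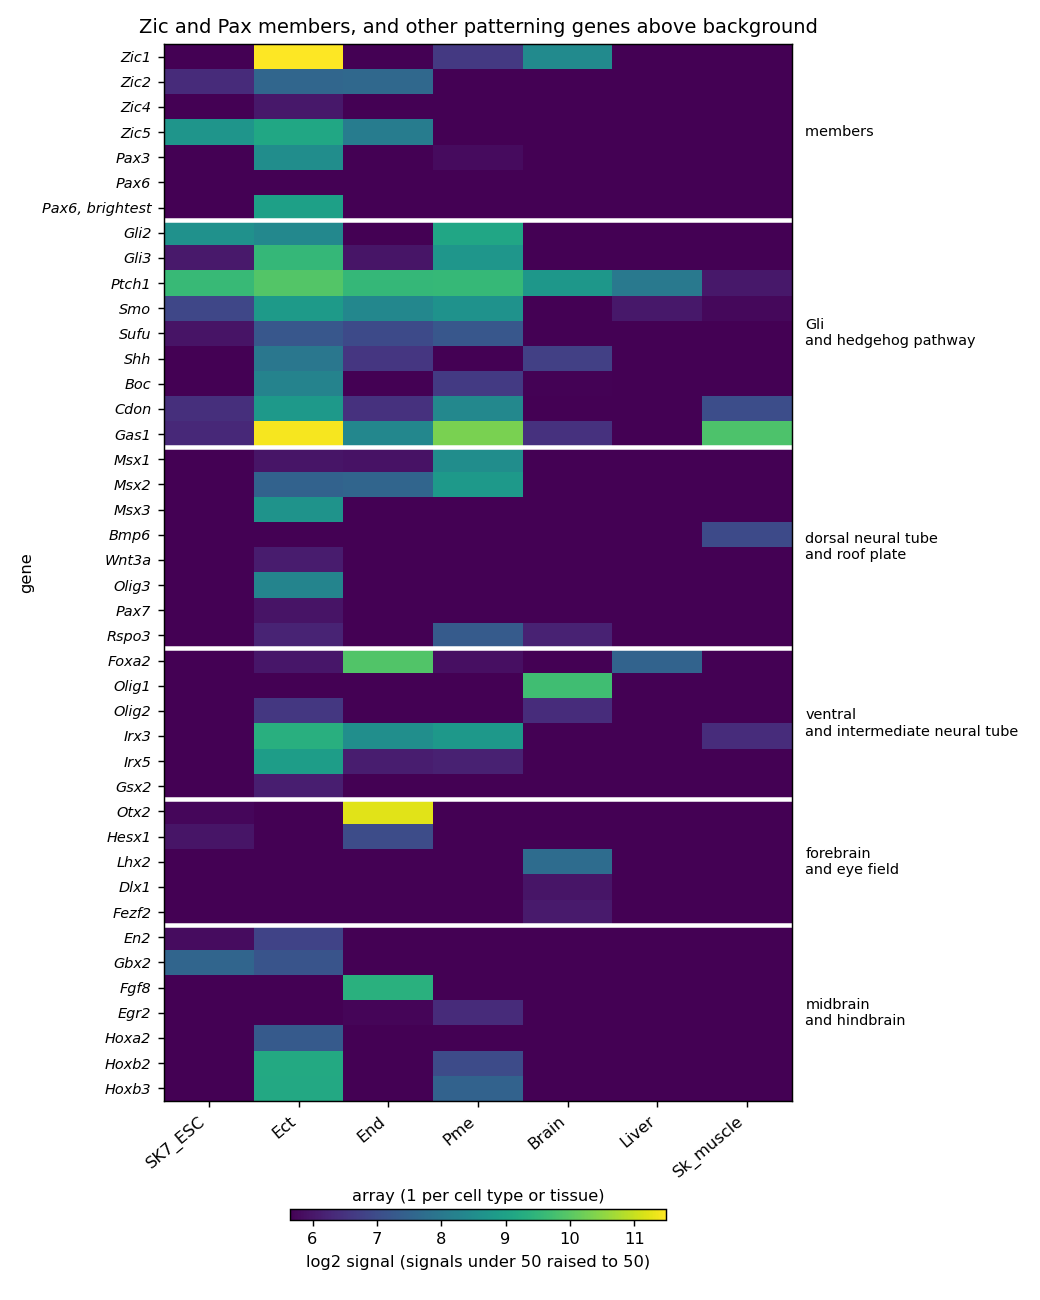
Log2 signals, with signals under 50 raised to 50, of the members and of other patterning genes above background in at least 1 array (lines), in the 7 arrays (columns, 1 array each). White lines part the lists, colours compare arrays within a line, and the second Pax6 line is its brightest probe set. Zic1 and Msx3 are bright in Ect, whereas Otx2 is bright in End.

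Neural progenitor genes were higher in Ect than in SK7_ESC in 9 of 13 cases and lower in 0, with a median log2 ratio of 2.21. The largest ratios were those of Fabp7 (at least 59.7), Hes5, a target of Notch signalling, with 671.5 in Ect and 6.6 in SK7_ESC (at least 13.4), and the Notch ligand gene Dll1 with 578.4 and 42.4 (at least 11.6). Sox2, a factor of both pluripotent and neural cells, was neither higher nor lower, with 2368.9 in Ect and 3029.7 in SK7_ESC. Of genes of mature cells, 7 of 8 neuron genes and 7 of 7 astrocyte and oligodendrocyte genes were lower in Ect than in Brain. The neuron gene that was not was Tubb3, with 721.2 in Ect and 532.4 in Brain. Above background were 6 of the 8 neuron genes in Ect and 2 in SK7_ESC, beside 47.1% and 44.4% of all genes. Against SK7_ESC, 2 of them were higher in Ect and 1 was lower, beside 6.62% and 4.89% of all genes.

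Of 14 neural crest genes, a lineage in which Zic1, Zic5 and Pax3 act, 5 were higher in Ect and 1 was lower. The largest ratios were those of Ednrb, an endothelin receptor of crest cells, with 763.1 in Ect (at least 15.3), Tfap2b with 336.2 (at least 6.72) and Tfap2a with 210.1 (at least 4.20), both factors of the crest and the border of the neural plate. The gene that was lower was Kit, a receptor of melanoblasts and germ cells, with 130.5 in Ect and 315.4 in SK7_ESC. The crest factors Foxd3 and Sox10 were under background in Ect, at 18.2 and 21.8. In Pme 4 of these genes were higher, among which Snai2 had 2139.2 and Twist1 199.5, both also expressed by mesenchymal cells.

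Of 9 genes of the Dach and Eya families and their Six4-related partners, which act with Pax factors, 2 were higher in Ect, Dach1 with 291.4 (at least 5.83-fold) and Dach2 with 165.4 (at least 3.31-fold), and Six4 was lower with 65.4 against 277.2. Of 10 myogenic and somite genes that act downstream of or beside Pax3, 0 were called higher or lower in Ect than in SK7_ESC. In Pme 0 were higher and 1 was lower, Tcf15, a factor of the somite epithelium. Above background were 3 of the 10 in Ect, 1 in Pme and 1 in SK7_ESC. Lbx1 had 63.3 in Ect, 15.0 in SK7_ESC and 7.1 in Pme, and Met had 68.7, 12.1 and 92.4. With SK7_ESC raised to background, the ratios were at least 1.27 and 1.37 in Ect and 1.85 for Met in Pme, which made no call. Myf5 and Myod1 were at 1.7 and 9.5 in Ect and at 3.1 and 2.1 in Pme, under background. These muscle determination genes were thus under background in both arrays in which Pax3 was above it.

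**Figure D4:**
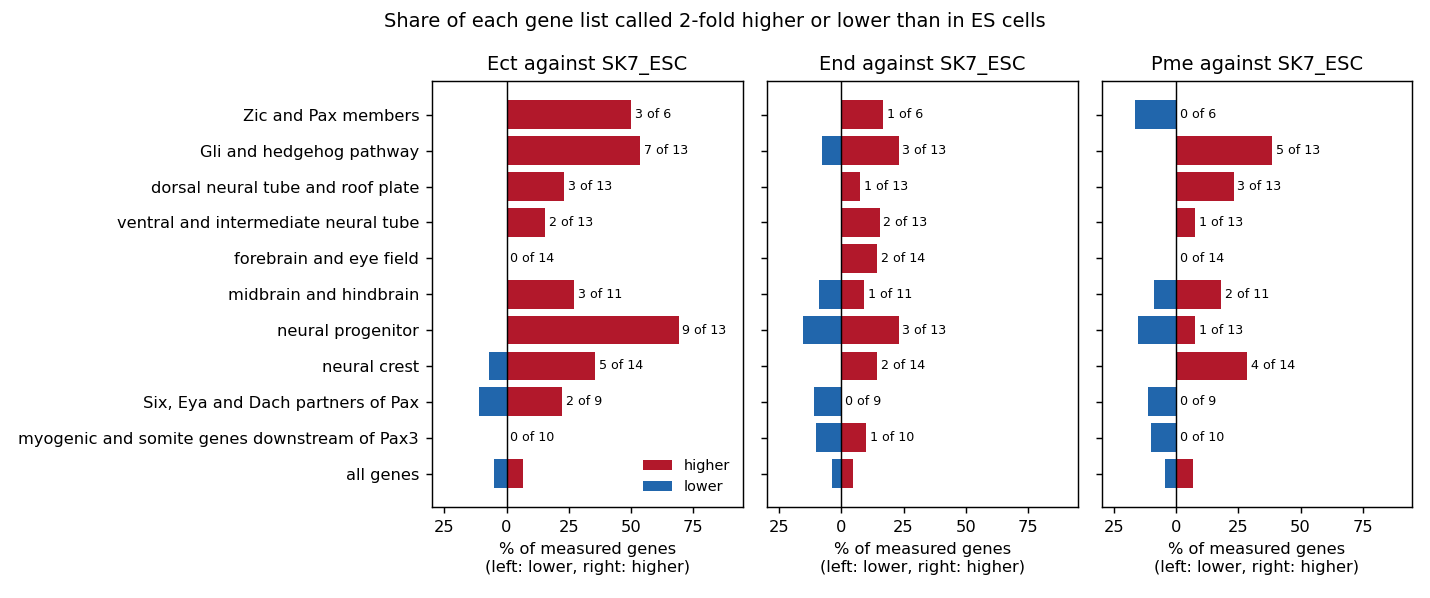
Percent of the measured genes of each list called 2-fold higher (red, right) or lower (blue, left) than in SK7_ESC in Ect, End and Pme, 1 array each, with the number higher printed. The members were 3 of 6 in Ect, the neural progenitor list 9 of 13 and the forebrain and eye field list 0 of 14, and the bars of all genes are 6.62% and 4.89% in Ect.

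In Brain, Zic1 was the only member above background. Genes of cerebellar granule neurons, in which Zic1 is known to be expressed, were above background in Brain in 4 of 11 cases, beside 49.9% of all genes. The largest signals were those of Slc17a7 at 559.1, Reln at 474.8 and Cbln1 at 180.5, which other neurons express too. Cbln1 was brighter in End, at 294.3, and Reln had 319.6 in Liver. The granule cell markers Gabra6, Cbln3 and Barhl1 were under background in Brain, at 7.9, 5.7 and 8.4. The part of cerebellar tissue in the Zic1 signal of Brain was not tested. In Liver and Sk_muscle the highest signal of any probe set of a member was 26.7, that of Pax6 in Sk_muscle, and Pax3 and Pax7, known from muscle progenitors, were at most 16.9 and 13.7 in Sk_muscle.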

How the data were processed

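RNA of 7 samples was hybridized by the authors to Affymetrix mouse genome arrays, 1 per sample. The files deposited by the authors hold a linear intensity per probe set (45101 in all), and the methods give 100 as the average signal of an array. Trimmed by 2% at either end, the mean came to 100.0 in every array. Untrimmed, it lay between 141 in Brain and 204 in Sk_muscle. The labels and methods used here name no summarisation algorithm. RNA extraction is named differently in the labels (RNeasy) and the methods (TRIzol). Gene symbols came from the platform annotation (34958 probe sets with 1 symbol, 932 with several, 9211 unnamed here), and 0 probe sets named a member together with another gene. Promoters came from RefSeq (GRCm38.p6). Ratios used a background of 50 and a 2-fold rule, and no test was run, since each group has 1 array, and this number limits the precision. The members and lists were chosen with earlier results of these data known. Of other genes, the text names those in the list of Pax genes, up to 3 per list with the largest Ect to SK7_ESC ratios and those against their list, up to 3 granule genes by signal in Brain, Sox2, Fabp7 and Otx2, and the 5 most similar patterns. Further genes were named after their values were seen. Alternatives were a background of 20, quantile normalization, equal medians, the geometric mean of probe sets, leaving out probe sets of shared sequence, a 3-fold rule and, added after the data were seen, the probe set with the highest single signal. Python 3.11.15, numpy 2.4.6, pandas 2.3.3 and matplotlib 3.10.9 were used. DNA methylation was not analysed here.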

Additional observations from a re-analysis of the deposited data

How the results depend on the processing

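Of 216 member ratios over 6 alternatives, 200 kept their call and 0 reversed, and quantile normalization changed none of them. Many of these calls could not change, so that the count overstates how stable they are. By the highest single signal, Zic1, Zic2, Zic4 and Zic5 keep the same probe set. A 3-fold rule can only remove a call, and the geometric mean leaves Zic2, with 1 probe set, as it was. Leaving out probe sets of shared sequence could not change a member, since none of the probe sets used for them is of that kind. With a background of 20, members above background were 4 in Pme, 2 in Brain and 2 in Sk_muscle. Of all genes, 58.6%, 63.3% and 60.1% were above it in these arrays. At this setting 2 members each were higher and lower in Pme than in SK7_ESC, beside 10.2% and 6.46% of all genes. After scaling to equal medians 1 member was higher in Pme, beside 5.40% of all genes. The ratio of Zic2 in Ect to SK7_ESC was then 1.97, which left 2 members higher in Ect, beside 5.32% of all genes. With the geometric mean of probe sets 1 member was above background in Pme, beside 36.7% of all genes. In End 1 was lower than in SK7_ESC, Zic5 with a ratio of 0.498, beside 2.73% of all genes. With a 3-fold rule 0 members were higher in End and 2 in Ect, beside 2.09% and 2.81% of all genes. By the probe set with the highest single signal Pax6 was higher in Ect than in SK7_ESC, in both other layers and in Brain. No paired analysis was possible because each group has 1 array.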
